A study of Mus musculus with 10 samples.

Results

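The Wnt receptors and transcriptional effectors described here are 10 genes, chosen by name from the 15899 genes of the matrix, and all 10 were found. The choice was made with earlier results of these data known. They are the Frizzled receptors Fzd1, Fzd2, Fzd3 and Fzd7, the co-receptors Lrp5 and Lrp6, the effectors Ctnnb1, Tcf7l1 and Tcf7l2, and the feedback gene Axin2. RNA immunoprecipitation followed by sequencing (RIP-seq) was done with an anti-FLAG antibody on cultures of adult neural stem cells (NSCs) of the mouse subependymal zone, grown as neurospheres with EGF and FGF. The FLAG cultures (Mex3aFLAG/FLAG) carry on both alleles a knock-in that adds a FLAG tag to the endogenous RNA-binding protein MEX3A, so that the tag is driven by the gene's own promoter. The WT cultures are wild-type at Mex3a, lack the tag and give the nonspecific background. The labels give an age of 10 weeks for the animals behind every library. The immunoprecipitation (IP) was done after formaldehyde crosslinking, giving 2 libraries per genotype, and natively, giving 3 per genotype. The study calls them biological replicates of cultures, and does not say whether cultures came from single or pooled animals. It reports 2 to 3 biological replicates per genotype, with both protocols run in parallel, so crosslinked and native libraries may share cultures. Unless a block is named, the tests below treat the libraries as independent. Input RNA was not analysed here, so a difference of FLAG over WT holds both what the tagged protein bound and any change of the RNA's abundance between FLAG and WT cells. In these bulk samples, fewer cells of a type and less RNA per cell cannot be told apart.

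In canonical Wnt signalling, a secreted Wnt ligand binds a Frizzled receptor and an LRP5 or LRP6 co-receptor on the cell surface, which halts the breakdown of β-catenin (Ctnnb1) by the Axin, APC and GSK3 destruction complex. β-Catenin then enters the nucleus and joins TCF/LEF factors on target genes, among them Axin2, which feeds back on the pathway. Wnt signals regulate proliferation and fate of neural stem cells in the subependymal zone, and some Frizzled receptors, FZD3 among them, also act in planar cell polarity and axon guidance.

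MEX3A is a KH-domain protein, and the MEX-3 recognition element (MRE), a short motif in 2 parts with a gap of at most 8 nt, was searched as a pattern of letters on the transcript strand of every gene's longest 3′ UTR in the annotation (GENCODE M21, GRCm38). Overlapping matches were counted separately. The match nearest to the stop codon is shown for the 4 Frizzled genes and for Tcf7l2, whose pulldown values differed most between FLAG and WT, and for Lrp6, whose values hardly differed, with the 2 parts of the motif in capitals.
Fzd1, chr5:4755264-4755286, minus strand: attatTTAGggcaaTTTAcgtat
Fzd2, chr11:102606589-102606613, plus strand: tatttTTAGgtcgcttTTTAaaaag
Fzd3, chr14:65202466-65202487, minus strand: tctggTGAGcattTTTAtaaac
Fzd7, chr1:59484787-59484805, plus strand: tccacTGAGcTTTAacctg
Lrp6, chr6:134450696-134450718, minus strand: gggggGGAGggagcTATAgagaa
Tcf7l2, chr19:55931977-55932000, plus strand: ctacaTGAGttaatgTTTAtggag
The motif is common: 79.1% of the 12179 coding genes with an annotated 3′ UTR hold at least 1 match. The sites are therefore shown as a description of the letters present, and nothing about binding is read from them.

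Before the results, 4 libraries have to be set apart. FLAG native replicates 1 and 3 had 329 and 178 genes tied at their lowest value, against at most 3 in each other library. FLAG native replicate 2 had a median correlation of 0.918 with the other FLAG native libraries and of 0.960 with the WT native libraries, so that it lay closer to the background. WT crosslinked replicate 2 had a correlation of 0.957 with the other WT crosslinked library and a median of 0.976 with the FLAG crosslinked ones. The deposited values share 1 distribution across libraries and give no read totals per library, so the depth and the counting error of each value are unknown. Of the markers, 8 of 10 listed for neural stem and progenitor cells were measured, among them Egfr with log2 values of 10.10 to 10.90, and their summed linear level ran from 1981 to 2284 in the WT and from 2015 to 2099 in the FLAG crosslinked libraries, and from 2557 to 2749 and from 2245 to 2794 in the native ones. Of the 8 neuroblast and neuron markers 3 were measured, and their sum lay lower in FLAG than in WT, at 642 to 663 against 825 to 842 crosslinked and at 535 to 608 against 735 to 749 native. Among these 3, Rbfox3 was called lower (log2 fold change -1.31 ± 0.17 (SE), limma adjusted p = 0.0127, all libraries). The sum of the 4 endothelial and mural markers measured was also lower in FLAG, from 6.31 to at most 8.88, than in WT, where it was at least 9.05. Those of the 2 oligodendrocyte markers (22.8 to 44.5), the 3 microglia markers (28.8 to 36.6) and the 2 ependymal markers (2.73 to 8.12) overlapped between FLAG and WT. The part of these differences in the results below was not tested.

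Over all libraries, the 4 Frizzled receptors lay higher in the FLAG pulldown than in the WT background by log2 fold changes of 1.05 to 1.90, while the co-receptors Lrp5 and Lrp6 differed by less than 0.10 and the effectors by -0.43 to 0.43. None of the 10 members passed the limma test with adjustment over all 15899 genes (adjusted p under 0.05 and a log2 fold change over 0.58 in either direction), in a matrix in which 0.264% of the genes were called higher and 0.233% lower. With the culture (genotype and replicate number) as a random block these shares were 0.0440% and 0.0503%, and without WT crosslinked replicate 2 they were 1.14% and 1.38%, again with no member called. At an unadjusted p under 0.05 and the same fold change, 4 of 10 members (the 4 Frizzled receptors) were higher and none lower. The shares of all genes were 7.24% and 5.28%. The members were chosen with earlier results of these data known, so their share is given as a description. The median log2 fold change was 0.24 over the 10 members and -0.03 over all genes. The members' median was 0.10 with a pseudocount of 8 on the linear scale, 0.11 without FLAG native replicates 1 and 3, and -0.0042 over the members left by a minimum mean of 10 or 50. Split by role, it was 1.33 over the 6 receptors and co-receptors and -0.11 over the 4 effectors and feedback gene. The fold changes of the low genes depend on how low values are scaled. With a pseudocount of 8 added on the linear scale, which shrinks low values towards each other, the log2 fold changes were 0.52 for Fzd1, 0.37 for Fzd2 and 0.18 for Fzd7, and Fzd3 stayed at 0.97.

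**Figure D1:**
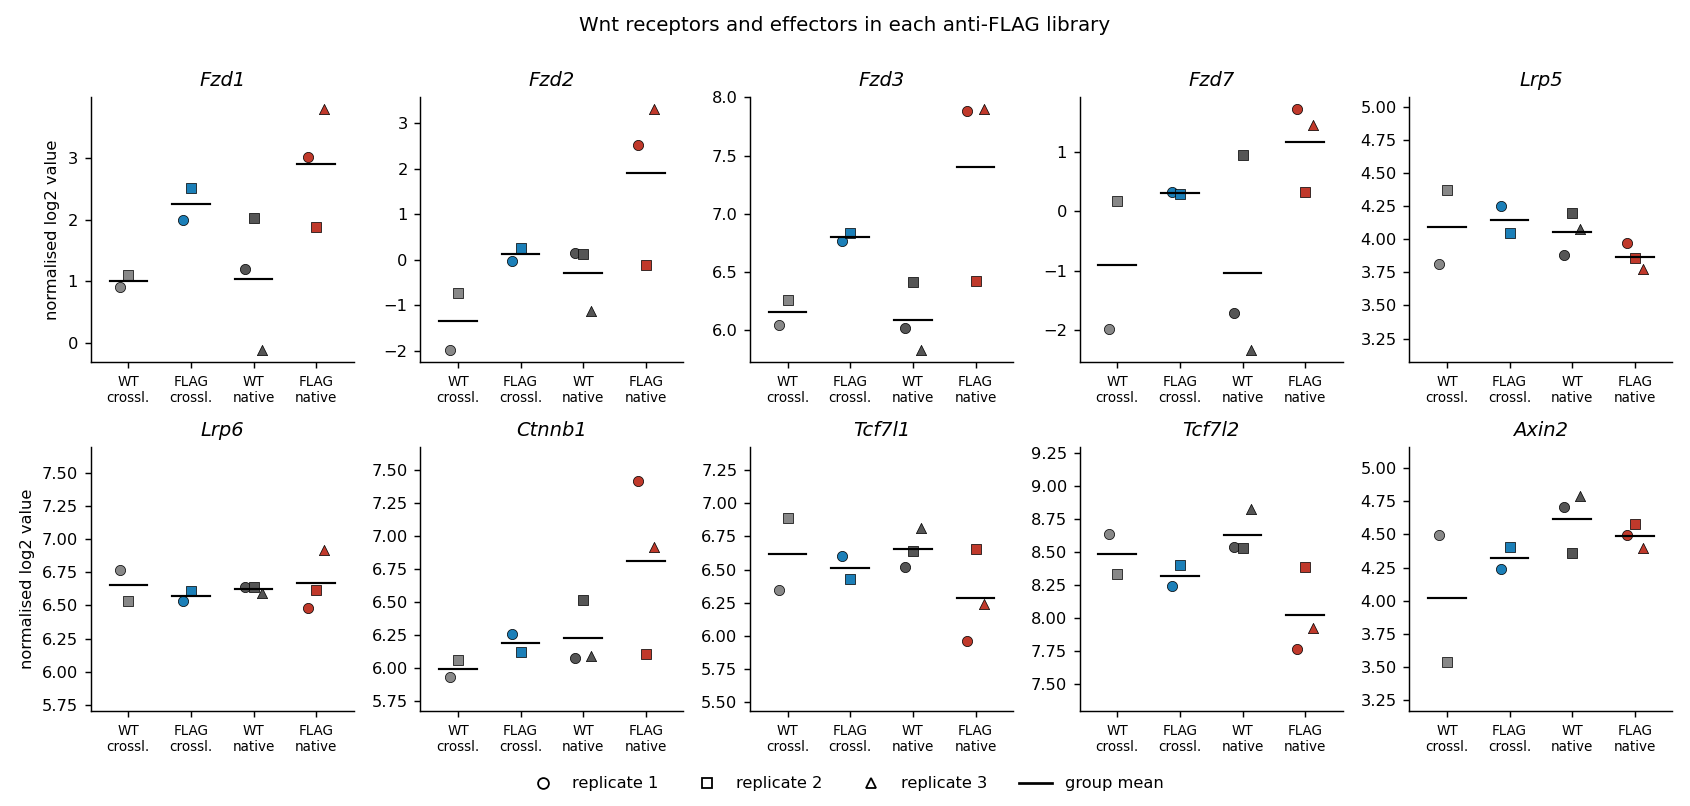
Normalised log2 value (vertical axes, each with its own range) of the 10 members in each of the 10 libraries, by genotype and IP protocol. Marker shapes give the replicate number and bars the group means. The 4 Frizzled genes lie higher in FLAG, with FLAG native replicate 2 (red square) next to the WT native libraries for Fzd2 and Fzd3.

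Fzd3, a Frizzled receptor of planar cell polarity and axon guidance, had the highest values of the 4. Its log2 values in crosslinked libraries were 6.76 and 6.84 in FLAG replicates 1 and 2, and 6.05 and 6.26 in WT. In native libraries they were 7.88, 6.42 and 7.90 in FLAG replicates 1, 2 and 3, and 6.02, 6.42 and 5.83 in WT. The groups did not overlap in either protocol, although FLAG native replicate 2 exceeded WT native replicate 2 only in the third decimal. Fzd3 was the only one of the 10 members whose FLAG libraries all lay above the WT libraries of the same protocol, which held for 4.84% of all genes in that direction and for 4.47% in the opposite one, where no member was found. The log2 fold change over all libraries was 1.05 ± 0.28 (SE, 5 against 5 libraries), with an unadjusted limma p of 0.00333 and an adjusted p of 0.109.

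Fzd1, which couples to β-catenin signalling, had crosslinked values of 1.99 and 2.52 in FLAG and 0.92 and 1.10 in WT. Its native values were 3.02, 1.89 and 3.80 in FLAG replicates 1, 2 and 3, and 1.21, 2.03 and -0.11 in WT. The crosslinked groups stood apart, and in native conditions FLAG replicate 2 fell below WT replicate 2. The log2 fold change over all libraries was 1.62 ± 0.43 (SE), which corresponds to a 3.07-fold higher value (limma adjusted p = 0.111).

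Fzd2, a receptor that binds both canonical and noncanonical Wnt ligands, had the largest log2 fold change of the members over all libraries. That rank depended on the setting. Among other cases, Fzd7 exceeded Fzd2 in native libraries, and Fzd1 and Fzd3 did with a pseudocount of 8. Without FLAG native replicates 1 and 3, Fzd1 and Fzd7 did. The crosslinked values of Fzd2 were -0.02 and 0.27 in FLAG and -1.98 and -0.72 in WT. Its native values were 2.53, -0.12 and 3.31 in FLAG replicates 1, 2 and 3, and 0.14, 0.13 and -1.12 in WT. FLAG native replicates 1 and 3 were thus far above every other library, whereas FLAG native replicate 2 lay under WT replicates 1 and 2. The log2 fold change was 1.90 ± 0.60 (SE), or 3.74-fold (limma adjusted p = 0.140). Fzd2 and Fzd3 are also in the list of enriched RNAs that the study drew from these same libraries, so that list is not independent evidence of their direction.

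Fzd7, a receptor of canonical signalling in stem cells, was measured at low values. Its crosslinked values were 0.33 and 0.29 in FLAG and -1.98 and 0.18 in WT. Its native values were 1.72, 0.33 and 1.45 in FLAG replicates 1, 2 and 3, and -1.70, 0.95 and -2.33 in WT. The WT libraries spread over more than the difference between the groups, and the native groups overlapped through FLAG and WT replicate 2. The log2 fold change was 1.80 ± 0.65 (SE), with a limma adjusted p of 0.175.

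The LRP co-receptors, which are phosphorylated after Wnt binding and recruit Axin to the membrane, showed no such separation. Lrp6 values ran from 6.48 to 6.92 over the 5 FLAG libraries and from 6.54 to 6.77 over the 5 WT libraries, with medians of 6.61 and 6.64. Its log2 fold change was -0.0042, with a 95% interval of -0.24 to 0.23. Lrp5 values ran from 3.78 to 4.25 in FLAG and from 3.81 to 4.37 in WT (log2 fold change -0.09, 95% interval -0.39 to 0.22). FLAG and WT overlapped for both genes in both protocols, and the intervals leave out a difference of the size estimated for Fzd3.

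Ctnnb1, which encodes β-catenin, had crosslinked values of 6.26 and 6.12 in FLAG and 5.93 and 6.06 in WT. Its native values were 7.41, 6.11 and 6.91 in FLAG replicates 1, 2 and 3, and 6.08, 6.52 and 6.09 in WT. The crosslinked groups did not overlap, and in native conditions only FLAG replicates 1 and 3 exceeded all WT libraries. The log2 fold change was 0.43 ± 0.22 (SE, limma unadjusted p = 0.0761). Cut into windows of 75 nt, 17.3% of its longest transcript is shared with the overlapping gene Ulk4, so the origin of some of its reads is uncertain. The share was 1.41% for Axin2, with Gm11670, and 0 for the other 8 members.

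Tcf7l2, a TCF factor that activates targets together with β-catenin, was the member with the lowest estimate and the highest log2 values. Its crosslinked values were 8.24 and 8.40 in FLAG and 8.64 and 8.34 in WT. Its native values were 7.77, 8.38 and 7.92 in FLAG replicates 1, 2 and 3, and 8.54, 8.53 and 8.82 in WT. The native groups did not overlap, with FLAG lower, and the crosslinked groups did. The log2 fold change over all libraries was -0.43 ± 0.15 (SE), with an unadjusted limma p of 0.0143 and an adjusted p of 0.160. Tcf7l1, which mostly represses targets in the absence of a Wnt signal, ran from 5.96 to 6.66 in FLAG and from 6.35 to 6.89 in WT (log2 fold change -0.26, limma unadjusted p = 0.118). Axin2, often used as a readout of canonical signalling, ran from 4.24 to 4.58 in FLAG and from 3.54 to 4.79 in WT, with a log2 fold change of 0.04. WT crosslinked replicate 2 had the lowest Axin2 value of all libraries.

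**Figure D2:**
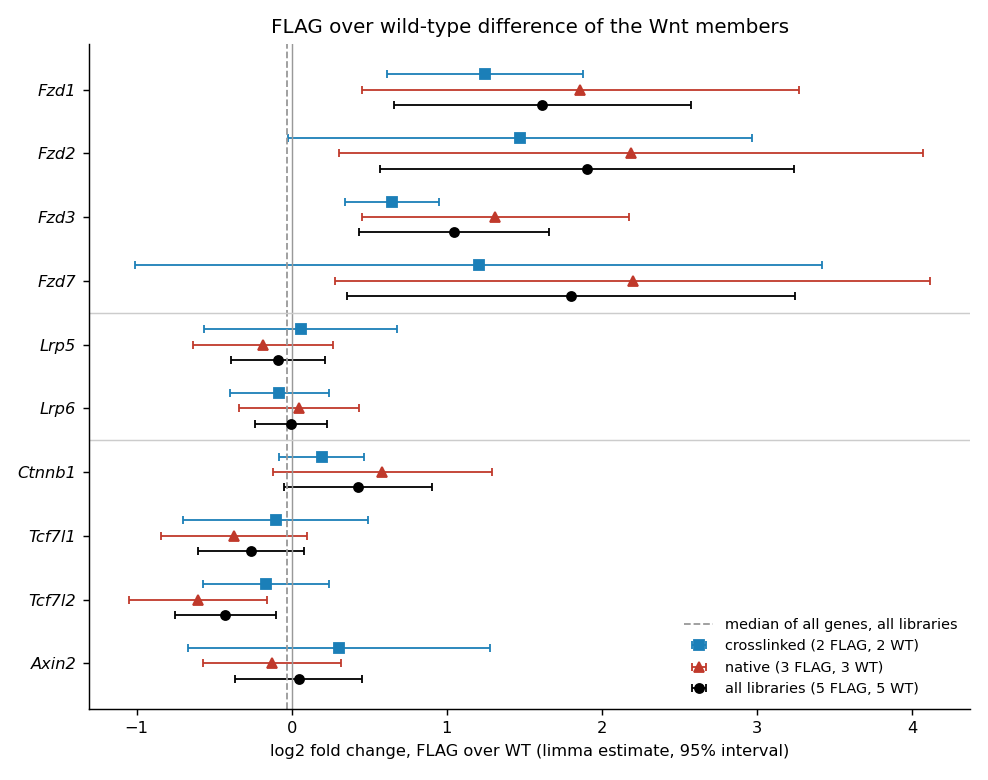
Log2 fold change of FLAG over WT (horizontal axis) with its 95% interval from limma, for each member in the crosslinked, native and all-libraries comparisons. The estimates of the Frizzled genes lie to the right of the median of all genes (dashed, -0.03), and the intervals of Lrp5, Lrp6, Axin2, Ctnnb1 and Tcf7l1 span 0 in each comparison, as do those of Fzd2 and Fzd7 in crosslinked libraries.

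In the crosslinked comparison, log2 fold changes were 1.25 for Fzd1, 1.47 for Fzd2, 0.65 for Fzd3 and 1.21 for Fzd7. Those of Fzd2 and Fzd7 rested on single WT libraries: without WT crosslinked replicate 1 they were 0.84 and 0.12, and without WT crosslinked replicate 2 both were larger, with 2.29 for Fzd7. No gene of the matrix was called by limma with 2 libraries against 2 (0% higher and 0% lower). At the unadjusted threshold Fzd1 and Fzd3 were higher, 2 of 10 members, and none was lower, against 2.78% and 0.987% of all genes. The FLAG and WT libraries did not overlap for 5 members, the 4 Frizzled genes and Ctnnb1, each with FLAG higher. With 2 libraries a group this held for 19.1% of all genes, and 19.9% were separated with FLAG lower, where no member was found.

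In native conditions the log2 fold changes were larger, at 1.86 for Fzd1, 2.19 for Fzd2, 1.31 for Fzd3, 2.20 for Fzd7 and 0.58 for Ctnnb1, and -0.60 for Tcf7l2. That of Ctnnb1 ran from -0.12 without FLAG native replicates 1 and 3 to 0.93 without FLAG native replicate 2. No member was called, in a comparison in which limma called 0% of the genes higher and 0.107% lower. At the unadjusted threshold 4 members were higher and 1, Tcf7l2, was lower, against 7.77% and 7.06% of all genes. The libraries did not overlap for Fzd3 with FLAG higher, as for 8.62% of all genes, and for Tcf7l2 with FLAG lower, as for 10.8%. The native and crosslinked fold changes were compared with the interaction term of the 4-group fit. For the Frizzled genes the native fold change exceeded the crosslinked one by 0.61 to 0.99 on the log2 scale, with an adjusted p of 0.970 for each, and no gene of the matrix was called (0% in either direction). Single libraries decided these differences for Fzd1, Fzd2 and Fzd7: that of Fzd1 was 0.037 without WT native replicate 3, that of Fzd2 was 0.014 without FLAG native replicate 3, 0.086 without WT crosslinked replicate 2 and 1.73 without FLAG native replicate 2, and that of Fzd7 was -0.089 without WT crosslinked replicate 2. That of Fzd3 lay between 0.42 and 1.15 under its 22 alternatives. No member reached an unadjusted p under 0.05 for this difference. At the unadjusted threshold, Fzd3 and Ctnnb1 were higher and Tcf7l2 lower without FLAG native replicate 2, beside 6.94% and 8.47% of all genes, and Axin2 was lower without WT crosslinked replicate 1, beside 1.74%. With array weights Fzd3 and Ctnnb1 were higher, beside 6.82%.

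**Figure D3:**
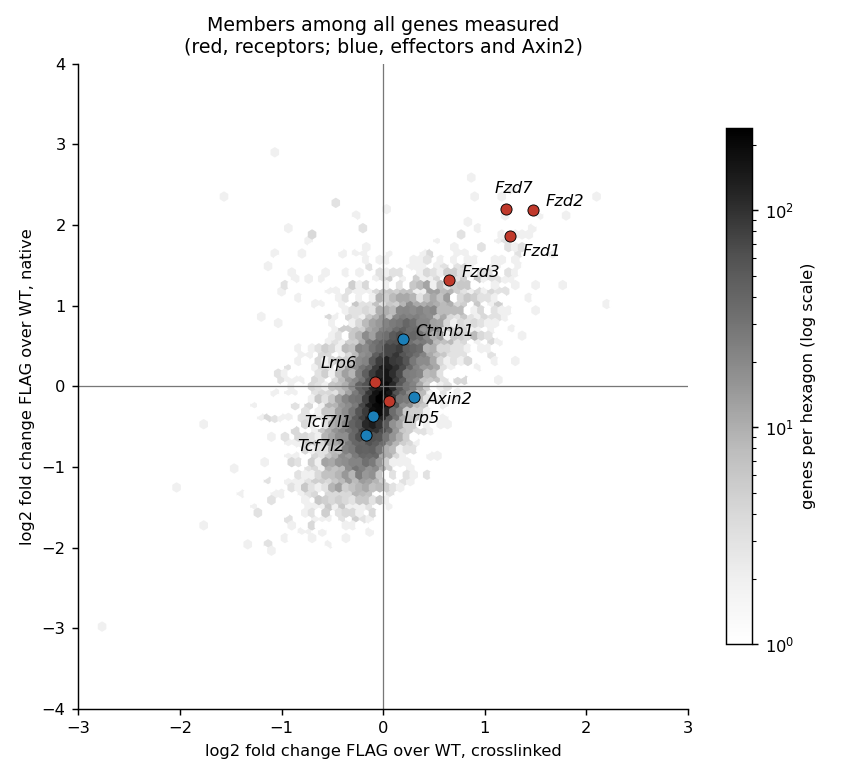
Log2 fold change of FLAG over WT in crosslinked (horizontal axis) and native (vertical axis) libraries, with all genes as grey hexagons (log-scaled density, genes beyond the axes not drawn) and the members as points. Fzd1, Fzd2, Fzd3 and Fzd7 lie in the upper right part, and Axin2 lies to the right of the centre of all genes, at 0.30 crosslinked and -0.13 native.

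How much of this rested on single FLAG native libraries could be read from their values against the mean of the WT native libraries. For Fzd2, FLAG native replicates 1, 2 and 3 lay 2.81, 0.17 and 3.59 above the WT mean on the log2 scale. For Fzd3 they lay 1.79, 0.33 and 1.81 above it. Against the mean of the WT crosslinked libraries, the crosslinked FLAG libraries lay 1.33 and 1.62 higher for Fzd2. Without FLAG native replicate 2, limma called Fzd1 (log2 fold change 1.86, adjusted p = 0.0418), Fzd2 (2.41, adjusted p = 0.0281) and Fzd3 (1.28, adjusted p = 0.0204) higher over all libraries, while the called share of all genes went up to 3.25% higher and 1.17% lower. Within the native libraries its removal gave 4 members called higher, with Ctnnb1 (0.93, adjusted p = 0.0204) beside the same 3 Frizzled genes, and 1 lower, Tcf7l2 (-0.78, adjusted p = 0.0137), at 9.12% and 10.8% of all genes. Without FLAG native replicates 1 and 3 instead, the log2 fold changes over all libraries were 1.08 for Fzd1, 0.91 for Fzd2, 0.51 for Fzd3 and 1.27 for Fzd7, and none was called.

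**Figure D4:**
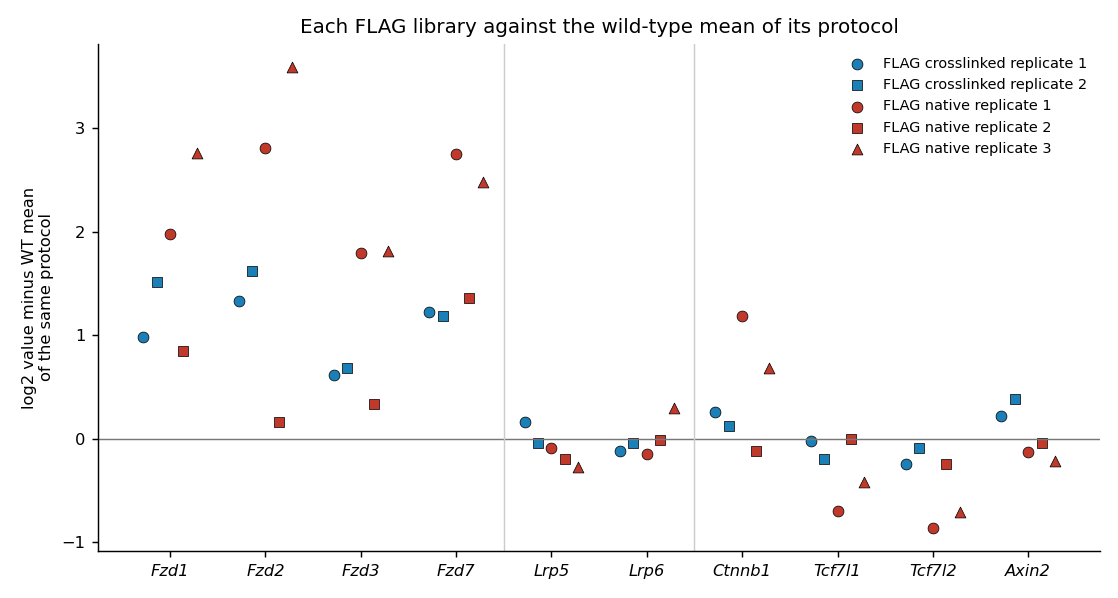
Normalised log2 value of each FLAG library minus the mean of the WT libraries of the same protocol (vertical axis), for each member. Blue, crosslinked; red, native; shapes, replicate number. For Fzd2 and Fzd3, native replicates 1 and 3 lie highest and native replicate 2 lowest, and all 5 FLAG libraries lie above 0 for the 4 Frizzled genes.

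Between protocols within a genotype, limma called 0.0440% of all genes higher and 0.289% lower in crosslinked than in native WT libraries, and none of the 10 members. Axin2 was the only member at an unadjusted p under 0.05, with a log2 difference of -0.60 (limma unadjusted p = 0.0472, adjusted p = 0.652), where 3.55% of all genes were lower at the unadjusted threshold. One library decided it, since the difference was -0.12 without WT crosslinked replicate 2, with no member past that threshold, and -1.08 without WT crosslinked replicate 1. Fzd2 had the largest estimate, -1.07, which was -1.70 without WT crosslinked replicate 2 and -0.076 with a pseudocount of 8. In the FLAG libraries 0.0440% were called higher and 0.396% lower in crosslinked than in native, and again no member, with none at an unadjusted p under 0.05. The FLAG estimates ran from -1.78 for Fzd2 to 0.29 for Tcf7l2. Without FLAG native replicate 2, Fzd2 (-2.79), Fzd3 (-1.09) and Ctnnb1 (-0.97) were called lower in crosslinked than in native FLAG libraries, while the called share of all genes went up to 7.57% higher and 9.08% lower. These comparisons leave aside that libraries of a genotype with the same number deviated together in both protocols. With the culture as a random block, limma called 0.0566% of all genes higher and 0.522% lower in WT, and 0.132% and 1.08% in FLAG, and still no member.

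Levels of different genes were compared on the linear scale per kb of exon. In the WT native background Tcf7l2 had the highest level (45.3 ± 5.42, mean ± SD, n = 3), followed by Tcf7l1 (25.8 ± 2.65), Ctnnb1 (14.6 ± 2.65), Lrp6 (7.22 ± 0.135), Fzd3 (5.39 ± 1.15), Axin2 (4.50 ± 0.673), Lrp5 (1.71 ± 0.188), Fzd1 (0.581 ± 0.376), Fzd2 (0.242 ± 0.101) and Fzd7 (0.179 ± 0.214). Neighbours in that order did not overlap, except Fzd3 with Axin2, Fzd1 with Fzd2, and Fzd2 with Fzd7. The order and the levels depend on the length used. Per kb of the longest transcript, the level of Tcf7l2 was 107, and Axin2 (5.81) lay above Fzd3 (5.42). In the FLAG native libraries Fzd3 reached 14.6 ± 6.83 and Tcf7l2 30.2 ± 6.97 (n = 3). The Frizzled transcripts other than Fzd3 were thus low in the background, so that their fold changes rest on low values, whose counting error is unknown.

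Fzd1 (chr5:4753839-4758035, minus strand), Fzd2 (chr11:102604396-102608058, plus strand) and Fzd7 (chr1:59482424-59486955, plus strand; GRCm38) are each annotated with 1 exon, unlike Fzd3 (chr14:65192449-65262463, minus strand) and the other members, whose transcripts have 7 to 23. Over all libraries the median estimate of the 199 intronless coding genes was a log2 fold change of 0.76 against 0.01 over the 12270 coding genes. In 179 of the 199 the estimate was above 0, 93 were higher at the unadjusted threshold and 4 were called higher. Among these 199 genes, 7 had a larger estimate than Fzd2, 9 than Fzd7 and 16 than Fzd1. The part of gene structure in the Frizzled values was not tested. Across the Frizzled family, 4 further receptors were measured. Fzd5 and Fzd8, which couple to β-catenin signalling, had log2 fold changes of 0.98 and 1.19, Fzd10 had 0.55, and Fzd4, known for its part in retinal vessel growth, had 0.04. Of these Fzd8 and Fzd10 have 1 exon, and Fzd4 and Fzd5 have 2. None was called (lowest limma adjusted p = 0.203, for Fzd5).

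The members' longest 3′ UTRs held 110 MRE matches in 34776 nt, or 3.16 per kb, against 2.67 per kb over all coding genes, and 9 of 10 members had at least 1. Without Fzd3 the other 9 members held 59 in 24506 nt, or 2.41 per kb, below the rate of all coding genes. Fzd3 held 51 matches in 10270 nt, the highest count of the members, and 3.26% of the 92 genes with a 3′ UTR within 20% of its length held as many or more. Fzd1 held 12 in 1813 nt (2.86% of 2064 genes of like length held as many or more). The other Frizzled genes were not at that end, with 6 matches for Fzd2 (27.2% of like-length genes) and 4 for Fzd7 (71.7%). Lrp6 held 15 (27.0%), Tcf7l2 8 (28.2%), Axin2 4 (41.5%) and Tcf7l1 3 (37.1%). Lrp5 (7 matches) and Ctnnb1 (0 matches) have their longest 3′ UTR on a transcript annotated for nonsense-mediated decay. On transcripts annotated as protein-coding, Ctnnb1 held 4 and Lrp5 2, all 10 members had a match, and the rate was 4.09 per kb over the members, 3.54 without Fzd3 and 2.80 over all coding genes. Of the 3′ UTRs of like length, 79.4% to 100% held at least 1 match, so holding a match does not set a member apart. The counts also depend on the form of the motif. With the last letters of its second part as AT in place of TA, the rate was 2.88 per kb over the members, 1.92 without Fzd3 and 2.52 over all coding genes, and Fzd2 held 0 matches, Ctnnb1 5, Fzd1 9, Fzd3 53 and Fzd7 6.

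**Figure D5:**
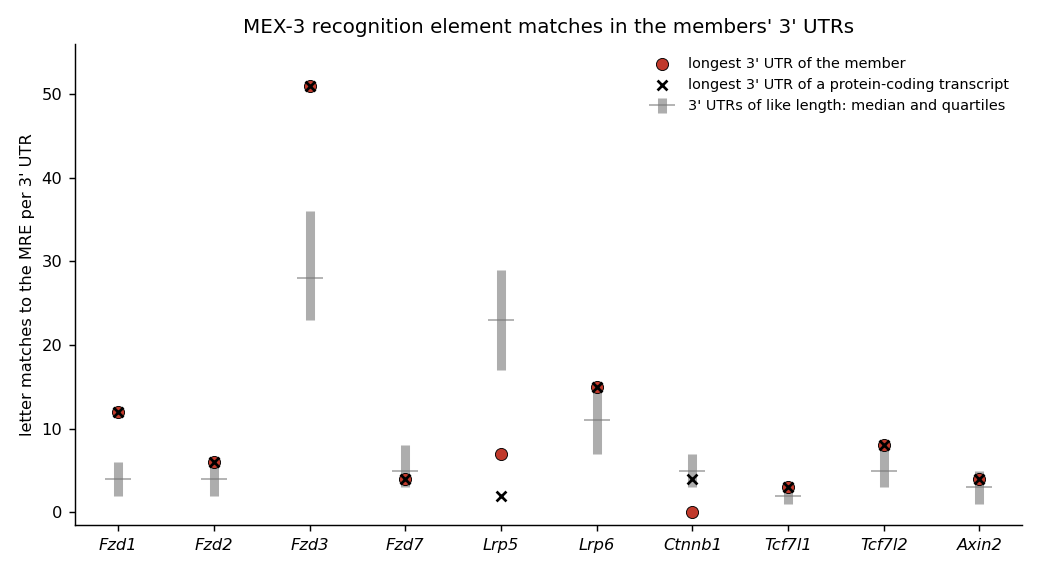
Red points give letter matches to the MRE (vertical axis) in the longest 3′ UTR of each member. Crosses give those in the longest 3′ UTR of a protein-coding transcript. Grey gives the median and quartiles of coding genes with a 3′ UTR within 20% of the length behind the red point. The crosses of Lrp5 and Ctnnb1 belong to shorter 3′ UTRs, to which the grey bars are not matched. Among the red points, Fzd1 with 12 and Fzd3 with 51 lie above the quartiles, and Lrp5 and Ctnnb1 below.

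Around the members, 83 other genes of the Wnt pathway were measured and none was called over all libraries. At the unadjusted threshold 9 of the 83 were higher and 5 lower, beside 7.24% and 5.28% of all genes, and their median log2 fold change was 0.03. Of 8 ligand and secretion genes measured of 21 listed, 1 was higher and 2 lower at that threshold: the noncanonical ligand Wnt5b (0.59), the ligand Wnt2b (-0.72) and Wls (-0.99), which carries Wnt proteins to the cell surface. The estimate of Wls was -0.63 without FLAG crosslinked replicate 2 and -1.98 with array weights. Of 9 other receptors measured of 11 listed, Fzd5 alone passed the threshold. Of the R-spondin and receptor turnover genes, 6 of 9 were measured, with a median of -0.37, and the ubiquitin ligase Rnf43, which removes Frizzled from the membrane, was lower (-0.83). The 3 extracellular inhibitors measured (of 16) and the 22 Dishevelled and destruction complex genes (of 24) had none past the threshold, with medians of 0.23 and 0.06.

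Among 19 nuclear factors measured of 20, the β-catenin cofactor Pygo1 (1.00), the kinase Hipk1 (0.63) and the corepressor gene Aes (0.74) were higher at the unadjusted threshold, and the Groucho corepressor Tle4 was lower (-0.63, limma adjusted p = 0.0571). Tle4 lay between 6.92 and 7.38 in FLAG and between 7.45 and 7.87 in WT, without overlap. The 9 transcribed targets measured of 16 had a median of -0.0078, with 4 estimates above 0 and 5 below. At that threshold 4 of them were higher and 1, Rnf43, was lower. The 4 higher ones were the G1 cyclins Ccnd1 (1.31) and Ccnd2 (0.92), Id2 (1.78), an inhibitor of bHLH factors, and Jun (0.77), a subunit of AP-1. Of 11 planar cell polarity genes measured of 12, the cadherin Celsr1 had the lowest estimate of the pathway (-1.64 ± 0.31 (SE), limma adjusted p = 0.0512), with FLAG below WT in both protocols, and the median was -0.35. Calls of these genes depended on the setting. Tle4 was called lower under 5 of 24 alternatives, among them robust moderation and leaving out FLAG native replicate 2 or WT crosslinked replicate 2, and Celsr1 under 4 of 22, these 3 included. Ccnd1, Pygo1 and Id2 were called higher under 2 alternatives each, and Fzd5, Hipk1, Ccnd2 and Wls (lower) under 1, in each case array weights or leaving out 1 of those libraries. With a pseudocount of 8 Celsr1 and Id2 were at -0.41 and 0.30.

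The genes most like Fzd2 over the 10 libraries, by Pearson correlation across samples given as a description, were Tmed4 (r = 0.981), Dusp7 (0.979) and B430305J03Rik (0.976). Those most like Tcf7l2 were Gm43259 (0.986), Gm28373 (0.981) and Mcu (0.979). The points share libraries, depth and group differences, and FLAG native replicates 1 and 3 set much of the range of Fzd2.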

How the data were processed

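RIP-seq values of 10 libraries were used, grouped by the labels. The deposited table holds log2 values for 15899 genes, made by the authors per the labels and methods with cutadapt, Trimmomatic, HISAT2 (GRCm38) and featureCounts. The methods name DESeq2 for normalization and the submitters' processing notes limma, and the library distributions are alike, as after quantile normalization. Read totals per library are not given in the sources used here, and the values are not counts, so no count model was fitted. FLAG and WT were compared with limma 3.58.1 (R 4.3.3, statmod 1.5.0; lmFit, eBayes with trend, Benjamini-Hochberg over all genes; p-values two-sided), over all libraries with the protocol as covariate and within each protocol, and protocols in a fit of 4 groups. The design had allowed for linear values, and log2 values were used as deposited. Steps were tested on simulated data. Annotation was GENCODE M21 on GRCm38, in which 15864 genes were found; figures were drawn with matplotlib 3.10.9 (Python 3.11.15).

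All 10 members are named. Of other pathway genes those called, and per list up to 4 a direction with the smallest unadjusted p under 0.05 and a log2 fold change over 0.58, are named, with the 3 genes most correlated with Fzd2 and Tcf7l2; Rbfox3, Fzd4, Fzd8, Fzd10 and Egfr were named after their values were seen. The members and lists were chosen with earlier results of these data known. Same-numbered FLAG and WT libraries of a protocol did not deviate together. Same-numbered crosslinked and native libraries of a genotype did (r = 0.178, 0.154, 0.300 and 0.388 over genes). The crosslinked libraries of a group deviate as mirror images, so these values are not independent. WT crosslinked replicate 1 and WT native replicate 3 also correlated, at 0.232. Alternatives were pseudocounts, minimum means, normalizations, a trend on GC content and length, blocks, weights and leaving out libraries. Leaving out FLAG native replicates 1 and 3, protein-coding transcripts for the MRE a crossed block and a culture block between protocols were added after seeing the data.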

Additional observations from a re-analysis of the deposited data

How the results depend on the processing

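The members' calls and directions were recomputed under each other setting. Counts of called members stayed at 0 with pseudocounts of 1 or 8, minimum means, other normalizations, a culture block, robust moderation and no trend. The replicate block changed no call, with 0 members called. As without it, 4 members were higher at the unadjusted threshold over all libraries, beside 6.91% of all genes. Same-numbered FLAG and WT libraries correlated at -0.149, -0.430 and -0.167 in native conditions, so the numbers showed no pairing there. The crosslinked value was -0.274 for same-numbered and 0.274 for crossed libraries. With 2 libraries a group the deviations mirror each other, so only the sign differs. A crossed pairing of the crosslinked libraries called 0 genes. A culture block between protocols, whose same-numbered libraries did deviate together, called 0 members.

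A pseudocount of 8 or a minimum mean moved the members' medians. The median log2 fold change of the members over all, crosslinked and native libraries was 0.10, 0.10 and 0.14 with a pseudocount of 8, -0.0042, 0.058 and -0.13 with a minimum mean of 10 on the linear scale (7 members left, without Fzd1, Fzd2 and Fzd7) and -0.0042, -0.081 and 0.047 with a minimum mean of 50 (5 left). The members higher at the unadjusted threshold numbered 1, 1 and 2 with the pseudocount of 8 and 1, 1 and 1 with each minimum. Removing the trend on GC content and length moved the native median to 0.39. It left 0 members lower in native libraries at that threshold, beside 6.45% of all genes. Lrp6 moved to 0.055 over all libraries, where it was 0.016 with the culture block. A fit of 4 groups left 0 crosslinked members at that threshold, beside 1.40% of all genes higher and 0.604% lower.

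Array weights called 4 members higher over all libraries (Fzd1, Fzd2, Fzd3 and Fzd7, with 6.95% of all genes called higher) and 5 higher and 1 lower in native libraries (10.4% and 12.1% of all genes), with medians of 0.17 and 0.47. Over all libraries the weights were 10.2 for FLAG crosslinked replicate 2, 9.02 for WT crosslinked replicate 1 and 0.12 to 1.36 for the other 8, so that the calls over all libraries rest largely on 1 library of each genotype. The weights turned Lrp5 to 0.16, Axin2 to -0.060 and Tcf7l1 to 0.040 over all libraries. Without FLAG native replicates 1 and 3, the medians were 0.11 over all and -0.00544 over native libraries. The lone native FLAG library was there taken to vary like the others. Over all libraries 1 member was higher at the unadjusted threshold, beside 2.88% of all genes. Lrp6 and Ctnnb1 turned to -0.0093 and -0.12 in native libraries.

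Leaving out 1 library at a time gave 0 to 3 members called higher over all libraries and, in native libraries, 0 to 4 higher and 0 to 1 lower, each highest without FLAG native replicate 2. Protocols within FLAG gave 0 to 3 members lower, again highest without that library, where 9.08% of all genes were called lower. The called share of all genes over all libraries ranged from 0.0252% to 3.25% higher and from 0.0440% to 1.38% lower. The medians ranged from 0.15 to 0.32 over all, from 0.13 to 0.30 over crosslinked and from 0.21 to 0.50 over native libraries. In native libraries 1 to 5 members were higher and 0 to 1 lower at the unadjusted threshold. The 5 came without FLAG native replicate 2, beside 15.7% of all genes higher and 16.5% lower. The 1 came without FLAG native replicate 3, beside 3.22% of all genes higher. Crosslinked counts are not given, since leaving out 1 library leaves 1 in a group. Members near 0 changed sign. Over all libraries Lrp6 ranged from -0.079 to 0.044 and Axin2 from -0.14 to 0.15. In crosslinked libraries Lrp5 ranged from -0.22 to 0.34, Lrp6 from -0.20 to 0.036, Axin2 from -0.18 to 0.78 and Tcf7l1 from -0.38 to 0.17, and in native ones Lrp6 from -0.077 to 0.14. The native minus crosslinked difference ranged from -0.52 to 0.037 for Lrp5, -0.54 to 0.0076 for Tcf7l1, -0.089 to 2.07 for Fzd7 and -0.91 to 0.049 for Axin2, and Lrp6 between protocols in FLAG from -0.19 to 0.025. The cause of these changes was not tested.

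The MRE rate of the members was 3.85 per kb over merged 3′ UTR exons, 4.09 on protein-coding transcripts and 2.88 with the other form of the motif. Depth is unknown, so it cannot be said how far counting error limits the low Frizzled values.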
